A study of Homo sapiens with 12 samples.

Results

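The NDRG family comprises NDRG1, NDRG2, NDRG3 and NDRG4, and its 4 genes were taken by symbol from the 34643 genes of the estimated-count table. All 4 passed the filter on low counts, along with 15415 other genes, so that 15419 genes were tested. The libraries came from LNCaP cells, an androgen-responsive line established from a lymph node metastasis of prostate cancer. Control cells, named sh_scramble, carried a scrambled short hairpin RNA (shRNA), and sh_TMEFF2 cells carried an shRNA against TMEFF2, a transmembrane protein gene that androgen regulates. Both hairpins were delivered by lentivirus, transcribed from the U6 promoter of pLKO.1-puro, and the transduced cells were selected with puromycin. All cells were first kept for 24 h in charcoal-stripped serum, which is low in steroids, and then received 10 nM of the androgen dihydrotestosterone (+DHT) or ethanol vehicle (−DHT) for 24 h. Each line was thus sequenced without and with DHT, in 3 libraries each, or 12 in all. The 3 repeats of a group were separate treatments drawn from 2 transductions, and the labels do not say which repeat came from which transduction or which of the TMEFF2 hairpins was sequenced.

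NDRG stands for N-myc downstream-regulated gene, after the repression of NDRG1 by that transcription factor. The NDRG proteins share a fold with the alpha/beta hydrolases but are thought to lack enzyme activity. NDRG1 is known to be raised by hypoxia, cellular differentiation and, in prostate cells, androgen, and its protein is phosphorylated by the kinase SGK1 and then by GSK3. NDRG2 is most abundant in brain, heart and muscle, NDRG3 is expressed in prostate and testis and its protein is degraded after hydroxylation by EGLN1, and NDRG4 is known mainly from brain and heart.

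NDRG1 was the member with calls in these cells. With DHT it rose 3.25-fold in sh_scramble, and in the presence of DHT it was 4.50-fold lower in sh_TMEFF2 than in sh_scramble. In sh_TMEFF2 it differed 1.17-fold between DHT and vehicle, which did not pass the test. NDRG2, NDRG3 and NDRG4 passed none of the 5 comparisons, with log2 differences between −0.35 and 0.57.

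Library totals were 19450866 to 22612046 estimated counts (median 21194622). The luminal prostate markers KRT8, KRT18, KLK3, FOLH1 and HOXB13 were all expressed, and some of them moved with the groups. The keratins KRT8 and KRT18 moved in the same direction as NDRG1. KRT8 was at 431 to 469 CPM (counts scaled to library size) in sh_scramble −DHT, 1059 to 1272 CPM in sh_scramble +DHT and 413 to 545 CPM in the 6 sh_TMEFF2 libraries. KRT18 was at 336 to 373, 739 to 824 and 316 to 372 CPM in the same groups. With DHT they rose in sh_scramble by 1.35 and 1.13 on the log2 scale (edgeR adjusted p of 5.73e-07 and 2.24e-07), differed by −0.15 and 0.06 in sh_TMEFF2, which was not called, and in the presence of DHT the lines differed by −1.36 and −1.12, with sh_TMEFF2 lower (adjusted p of 1.86e-06 and 9.01e-07). KLK3, which encodes prostate-specific antigen, rose with DHT by 1.96 and 2.45 in sh_scramble and sh_TMEFF2 and was lower in sh_TMEFF2 by −2.43 without and −1.94 with DHT. FOLH1 fell by 0.88 with DHT in sh_scramble, and HOXB13 was not called. The part of these markers in the NDRG1 results was not tested. The basal marker KRT5 was listed at 0 in all 12 libraries, the endothelial marker PECAM1 was at 0.319 to 1.63 CPM, the blood cell marker PTPRC at 3.15 to 7.74 CPM and the fibroblast marker COL1A1 at 11.9 to 30.4 CPM. Of these, PTPRC and COL1A1 moved opposite to NDRG1 with DHT in sh_scramble, by log2 differences of −0.59 and −0.61, COL1A1 fell in sh_TMEFF2 too, by 0.68, PTPRC was higher in sh_TMEFF2 with DHT by 0.65, and their part in any result was not tested. Each of the 2 PTPRC calls was lost in 10 of 22 alternatives, among them the omission of any 1 sh_scramble +DHT library, of replicates 1 or 3 of sh_scramble −DHT for the response, and of replicates 1 or 2 of sh_TMEFF2 +DHT for the line difference. The COL1A1 calls went under 1.5-fold without replicate 2 of sh_scramble +DHT and without replicate 1 of sh_TMEFF2 −DHT, respectively. Calls required 1.5-fold or more and, in edgeR's quasi-likelihood test, an adjusted p no higher than 0.05, which alone decided for the difference between the DHT responses. CPM are TMM-normalized throughout, and every log2 value is a difference between groups unless it is named as a level.

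TMEFF2 itself served as the check of the hairpin. Its level was 77.8, 73.8 and 103 CPM in sh_scramble −DHT and 68.6, 39.3 and 81.7 CPM in sh_TMEFF2 −DHT. With DHT it was 173, 117 and 169 CPM in sh_scramble and 142, 90.1 and 114.5 CPM in sh_TMEFF2. The lines overlapped at both DHT levels, while at each replicate number the sh_TMEFF2 library was the lower one. TMEFF2 mRNA was lower in sh_TMEFF2 by a log2 difference of −0.43 without DHT (95% interval −0.97 to 0.11) and −0.41 with DHT (95% interval −0.94 to 0.12), and edgeR's adjusted p was 0.503 and 0.304. The total of this transcript therefore did not separate the lines by the test. The study reports Western blots of LNCaP cells in which some of its TMEFF2 hairpins, though not all, appreciably reduced the protein. It also plots TMEFF2 mRNA in such cells. Protein is another measure than the mRNA totals given here.

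The target sites that the study prints for shTMEFF2-1 and shTMEFF2-2 are shown because a hairpin can also act on transcripts that resemble its target or that match its seed. The study's methods also list shTMEFF2-0, for which its supplement prints no target, so that hairpin was not matched. Each target is written 5′ to 3′ as in the mRNA, and capitals mark its bases 14 to 20, which pair with the seed, bases 2 to 8 of the guide strand.
shTMEFF2-1: cgtctgtcagttcAAGTGCAa
shTMEFF2-2: gcgcttctgatggGAAATCTt
Against every annotated transcript of the 4 NDRG genes, the closest match of either 21-base target had 7 to 9 mismatches, and against TMEFF2 it had 0. The seed match AAGTGCA was found 0 times in the canonical transcripts of the 4 NDRG genes, and so was GAAATCT. Of 14189 tested genes with a canonical transcript, 24% held the first and 27% the second. These counts describe letters in the transcripts and say nothing of binding.

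Within the family the levels spanned a wide range. Per kilobase of canonical transcript, in sh_scramble −DHT, NDRG3 stood highest at 53.7 ± 7.13 CPM per kilobase (SD, n = 3), followed by NDRG1 at 33.1 ± 14.3, NDRG2 at 19.3 ± 1.30 and NDRG4 at 0.939 ± 0.451. NDRG1 and NDRG3 overlapped in that group, since NDRG1 exceeded NDRG3 in replicate 3. With DHT in sh_scramble the order changed, and NDRG1 came first at 107.5 ± 7.29 CPM per kilobase, ahead of NDRG3 at 52.0 ± 4.93. In sh_TMEFF2, NDRG3 led at both DHT levels with 48.0 ± 1.06 and 42.7 ± 1.98 CPM per kilobase. There NDRG1 stood at 20.5 ± 2.24 without DHT, where it overlapped NDRG2 at 18.6 ± 0.466, and at 23.9 ± 2.81 with DHT, where it did not overlap NDRG2 at 16.9 ± 0.109. NDRG4 was the lowest member in every library.

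Expressed as a share of the family's summed level per kilobase, NDRG1 made up 22.7% to 42.8% in the sh_scramble −DHT libraries and 58.8% to 62.8% in the sh_scramble +DHT libraries. In sh_TMEFF2 the range was 21% to 24.8% without DHT and 26.2% to 29.6% with DHT. The order between members depends on the length used. With the mean length of the coding transcripts, which is 679 bases for NDRG1 against 2340 for NDRG3, NDRG1 stood above NDRG3 in all 4 groups, and with the longest coding transcript NDRG1 fell below NDRG2 in sh_TMEFF2 −DHT. The comparisons of groups within a gene do not use the length.

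**Figure D1:**
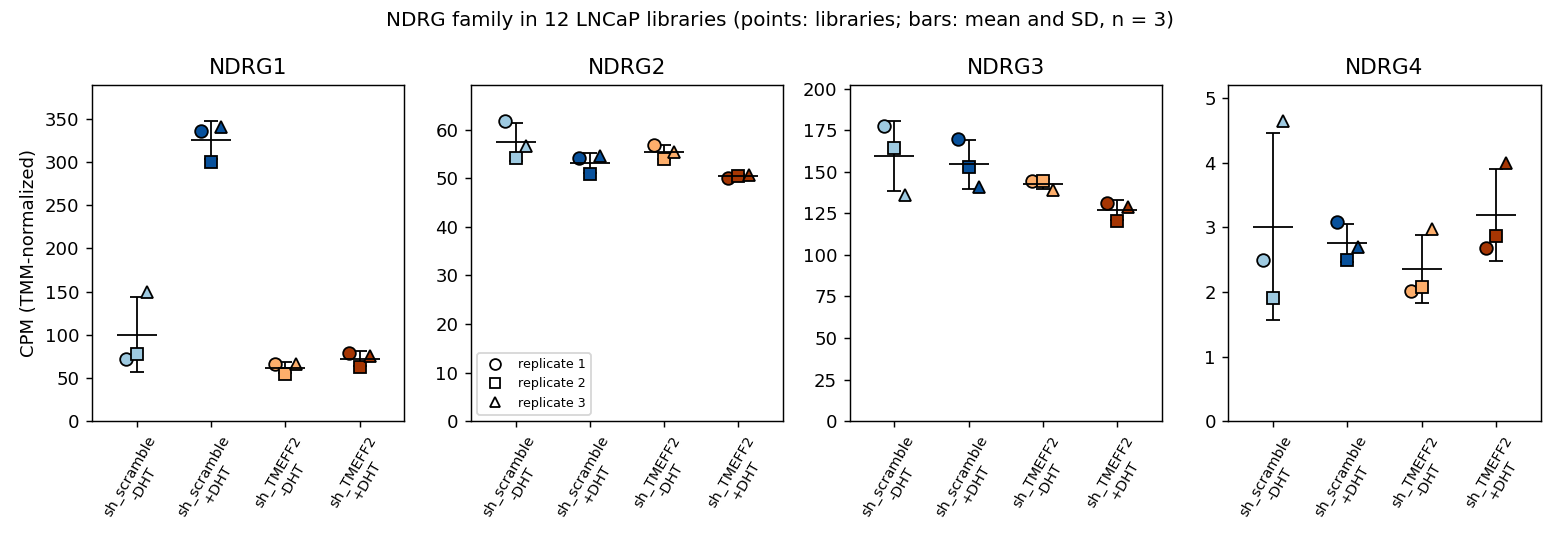
Levels of the 4 NDRG genes in CPM (vertical axes, linear and starting at 0, on a scale of their own for each gene) in the 3 libraries of each group, with bars for the mean and SD. The 3 sh_scramble +DHT libraries of NDRG1 sit between 300.0 and 339.9 CPM, above the 9 others, of which the highest is 149.8 CPM, and NDRG2, NDRG3 and NDRG4 show no group of that kind.

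NDRG1 was measured at 72.0, 78.2 and 149.8 CPM in sh_scramble −DHT and at 336, 300.0 and 339.9 CPM in sh_scramble +DHT. In sh_TMEFF2 it was at 65.6, 54.1 and 66.0 CPM without DHT and at 78.8, 62.7 and 75.4 CPM with DHT. All 3 sh_scramble +DHT libraries were at least 300.0 CPM, more than any other library. Replicate 3 of sh_scramble −DHT stood above the other 2 of its group, with the coefficient of variation at 43.2% there and between 6.78% and 11.8% in the other groups. By mean, sh_scramble +DHT came first, then its vehicle group, then sh_TMEFF2 with and lastly without DHT, where sh_scramble −DHT overlapped sh_TMEFF2 +DHT, and sh_TMEFF2 +DHT overlapped sh_TMEFF2 −DHT.

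The first question was how the family responded to androgen in control cells. NDRG1 rose with DHT in sh_scramble by 1.70 ± 0.22 on the log2 scale (standard error; 95% interval 1.22 to 2.18), with an edgeR adjusted p of 0.000105 and no overlap between the groups. Thus 1 of 4 members was called higher and 0 lower, where 5.45% of all genes tested were called higher and 6.45% lower. Without replicate 3 of sh_scramble −DHT the increase was 2.12. In bulk RNA, fewer cells of a type and less RNA per cell cannot be told apart, and this holds for every difference given here.

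In sh_TMEFF2 the NDRG1 difference with DHT was 0.22 ± 0.22 on the log2 scale (95% interval −0.25 to 0.70), with an edgeR adjusted p of 0.562, and the groups overlapped. Here 0 of 4 members were called, where 3.28% of genes were called higher and 1.6% lower. The interval of this response lies below that of the response in sh_scramble. Tested directly, the DHT response of NDRG1 was smaller in sh_TMEFF2 than in sh_scramble, by −1.48 ± 0.31 (95% interval −2.14 to −0.81; edgeR adjusted p of 0.0159). Of all genes, 1.65% were called with a higher and 3.29% with a lower response in sh_TMEFF2, and of the NDRG genes 0 and 1. Leaving out single libraries moved this difference between −1.88 and −1.29, and edgeR's adjusted p did not exceed 0.0437.

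Between the lines, NDRG1 with DHT fell by 2.17 on the log2 scale (standard error 0.22; 95% interval −2.66 to −1.69) in sh_TMEFF2 compared to sh_scramble, with an edgeR adjusted p of 3.78e-05. This was 1 of 4 members called lower and 0 higher, where 3.74% of genes were called lower and 3.03% higher. Without DHT the difference was −0.69 ± 0.22 (95% interval −1.17 to −0.22), and the groups did not overlap, since the highest sh_TMEFF2 library was at 66.0 CPM and the lowest sh_scramble library at 72.0 CPM. It was not called, with an unadjusted p of 0.0077 and an adjusted p of 0.173 in edgeR, and 0 of 4 members were called in a comparison in which 0.272% of genes were called lower and 0.298% higher. Without replicate 3 of sh_scramble −DHT this difference was −0.27, with an adjusted p of 0.363, so its size rests on that library.

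**Figure D2:**
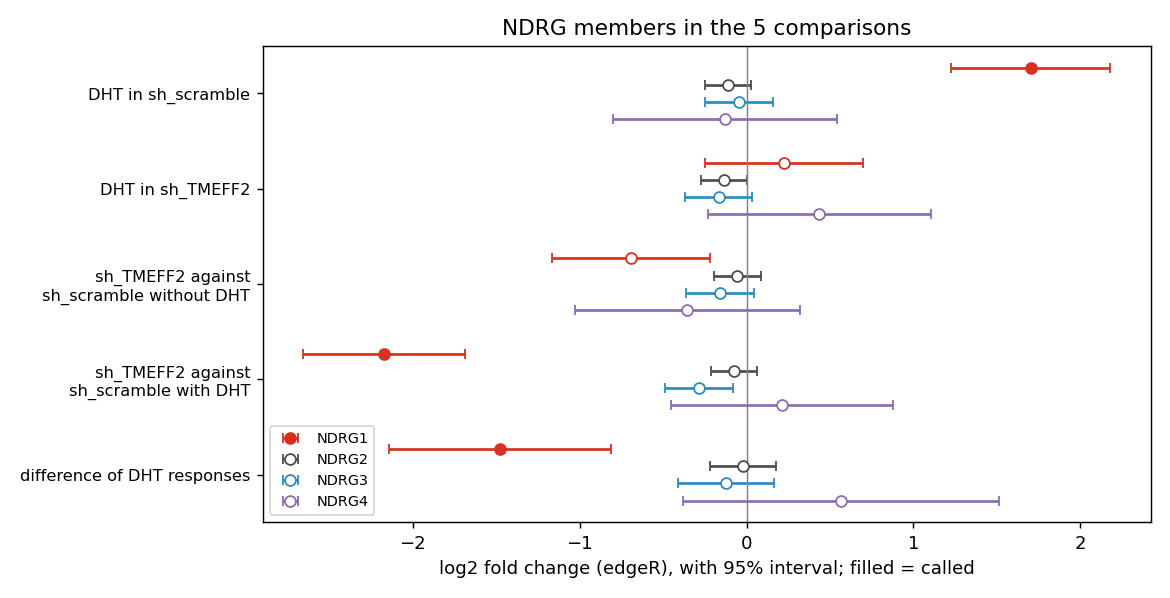
Log2 fold changes (horizontal axis) of the 4 NDRG genes in the 5 comparisons (rows) from edgeR, with 95% intervals as bars; filled points were called. Only NDRG1 is filled, at 1.70 for DHT in sh_scramble, −2.17 for sh_TMEFF2 against sh_scramble with DHT and −1.48 for the difference of the DHT responses, and the widest intervals belong to NDRG4.

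NDRG2 was the steadiest member, with 61.8, 54.2 and 56.5 CPM in sh_scramble −DHT and 54.2, 50.8 and 54.5 CPM in sh_scramble +DHT. In sh_TMEFF2 it was at 56.8, 54.0 and 55.4 CPM without DHT and 50.1, 50.5 and 50.7 CPM with DHT. Hence all 12 libraries lay within 50.1 to 61.8 CPM, and the sh_TMEFF2 +DHT libraries were the lowest without reaching the sh_TMEFF2 −DHT or sh_scramble +DHT libraries. The log2 difference with DHT was −0.11 in sh_scramble (95% interval −0.25 to 0.03; edgeR adjusted p of 0.215) and −0.13 in sh_TMEFF2 (95% interval −0.27 to 0.00; adjusted p of 0.196). Between the lines it was −0.05 without DHT (−0.19 to 0.08; adjusted p of 0.792) and −0.08 with DHT (−0.21 to 0.06; adjusted p of 0.482). The intervals leave room for a change of up to 0.27 on the log2 scale. The sign of the sh_TMEFF2 response and of the line difference with DHT turned when only the first of the 2 columns of each library was used.

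NDRG3 was, by group mean, the highest member per kilobase of canonical transcript outside sh_scramble +DHT. Its level was 178, 165 and 136 CPM in sh_scramble −DHT and 169.8, 153 and 141 CPM in sh_scramble +DHT. In sh_TMEFF2 it was at 144.4, 144.5 and 139 CPM without DHT and at 131, 120.3 and 129 CPM with DHT. The 3 sh_TMEFF2 +DHT libraries were lower than all 9 others. The largest of its differences was the one between the lines with DHT, −0.28 ± 0.09 (95% interval −0.49 to −0.08), which is 1.22-fold and so under the limit of 1.5, with an unadjusted p of 0.010 and an adjusted p of 0.0579 in edgeR. In the other comparisons the log2 difference was −0.05 for DHT in sh_scramble (95% interval −0.25 to 0.16), −0.17 for DHT in sh_TMEFF2 (−0.37 to 0.03) and −0.16 between the lines without DHT (−0.36 to 0.04). Their edgeR adjusted p values were 0.763, 0.276 and 0.501. The DHT responses of NDRG3 differed by −0.12 between the lines (95% interval −0.41 to 0.16), which also did not pass.

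NDRG4 was barely expressed, at 2.49, 1.90 and 4.65 CPM in sh_scramble −DHT and 3.08, 2.49 and 2.70 CPM in sh_scramble +DHT. In sh_TMEFF2 it was at 2.02, 2.08 and 2.97 CPM without DHT and 2.69, 2.88 and 4.01 CPM with DHT. These levels rest on 37 to 95 estimated counts in a library, and all groups overlapped. The highest library was replicate 3 of sh_scramble −DHT, the library that was also high in NDRG1 within its group. The log2 difference with DHT was −0.13 in sh_scramble (95% interval −0.80 to 0.54; edgeR adjusted p of 0.798) and 0.44 in sh_TMEFF2 (95% interval −0.23 to 1.11; adjusted p of 0.407). A 1.5-fold fall with DHT in sh_scramble and a 1.5-fold rise with DHT in sh_TMEFF2 lay within these intervals.

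The members also differed in how far libraries of one group spread. The biological coefficient of variation estimated by edgeR was 18.8% for NDRG1, against 10.1% on the trend for genes of its abundance. It was 6.50% for NDRG2 (trend 10.2%), 9.08% for NDRG3 (trend 10.1%) and 25.1% for NDRG4 (trend 24.5%). NDRG1 was thus the member whose spread stood furthest above the trend, and without replicate 3 of sh_scramble −DHT the standard error of its DHT response in sh_scramble went from 0.22 to 0.12.

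Upstream of the family, 20 known regulators and partners of NDRG proteins were followed, of which 19 passed the filter. With DHT in sh_scramble, 3 were called higher and 0 lower, where 5.45% of all genes were called higher and 6.45% lower, with a median log2 difference of −0.10 over the list and −0.01 over all genes. In sh_TMEFF2, 0 were called higher with DHT and 1 lower, where 3.28% and 1.6% of all genes were (median −0.07; all genes −0.02). Without DHT, 1 was called higher and 0 lower in sh_TMEFF2 compared to sh_scramble, against 0.298% and 0.272% of all genes (median 0.03). With DHT, 1 was called higher and 2 lower, against 3.03% and 3.74% of all genes (median 0.03). Between the DHT responses, 0 were called higher in sh_TMEFF2 and 3 lower, against 1.65% and 3.29% of all genes (median −0.03).

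SGK1, the kinase that phosphorylates NDRG1 first, was among the called genes. SGK1 was at 1.90, 2.00 and 1.62 CPM in sh_scramble −DHT and at 6.16, 7.66 and 6.75 CPM in sh_scramble +DHT, against 2.69, 3.32 and 2.41 CPM in sh_TMEFF2 −DHT and 2.27, 2.97 and 2.23 CPM in sh_TMEFF2 +DHT. Like NDRG1, it was highest in the 3 sh_scramble +DHT libraries, without overlap. Unlike NDRG1, it was higher in sh_TMEFF2 without DHT, by 0.61 and without overlap, which was not called (edgeR adjusted p of 0.193). SGK1 rose with DHT in sh_scramble by 1.90 ± 0.20 (edgeR adjusted p of 1.96e-05), differed by −0.18 in sh_TMEFF2, and was lower in sh_TMEFF2 with DHT by −1.46 (adjusted p of 0.000239). The difference of its DHT responses was −2.07 ± 0.28 (adjusted p of 0.00125). The call between the lines with DHT was lost when only the second column of each library was used (adjusted p of 0.0717).

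SGK3, a kinase of the same family, was at 28.4 to 32.8 CPM in sh_scramble −DHT, 41.8 to 56.0 CPM in sh_scramble +DHT and 30.7 to 38.2 CPM in the 6 sh_TMEFF2 libraries. It rose with DHT in sh_scramble by 0.69 ± 0.11 (edgeR adjusted p of 0.000627). Its line difference with DHT was −0.53, an adjusted p of 0.0069 but under 1.5-fold. The difference of the DHT responses was −0.65 ± 0.16 with an adjusted p of 0.0358, and this call was lost without any 1 of 8 libraries, namely replicates 1 and 3 of sh_scramble −DHT, 1 and 2 of sh_scramble +DHT, 1 and 2 of sh_TMEFF2 −DHT, and 1 and 3 of sh_TMEFF2 +DHT (adjusted p of 0.0748 to 0.0926). It was also lost with library size only and with the first column of each library only (adjusted p of 0.365), so in 10 of 21 alternatives. The kinases GSK3A and GSK3B, which act on NDRG1 after SGK1, were not called. GSK3B differed by −0.29 with DHT in sh_scramble and −0.32 in sh_TMEFF2, with edgeR adjusted p values of 0.00413 and 0.00622, and both were under 1.5-fold.

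RAB4A, a small GTPase of recycling endosomes to which NDRG1 binds, was at 65.1 to 73.2 CPM in sh_scramble −DHT and at 150.2, 129 and 124 CPM in sh_scramble +DHT. In sh_TMEFF2 it stayed between 61.6 and 73.7 CPM at both DHT levels. RAB4A rose with DHT in sh_scramble by 0.98 ± 0.09 (edgeR adjusted p of 6.68e-06), was lower in sh_TMEFF2 with DHT by −0.95 (adjusted p of 1.99e-05), and its DHT responses differed by −0.91 ± 0.13 (adjusted p of 0.00139). All 3 calls held in every alternative. BVES, a membrane protein that binds NDRG4, was called higher in sh_TMEFF2 by 0.82 without DHT and by 0.59 with DHT (adjusted p of 0.0379 and 0.0351). These are calls near the limits, since they were lost in 12 and 11 of 21 alternatives, NDRG4 itself differed by −0.35 and 0.21, and without both sh_scramble libraries of replicate 3 neither BVES call remained (adjusted p of 0.107 and 0.0545). Single libraries whose omission ended the call without DHT were all 3 of sh_scramble −DHT and of sh_TMEFF2 −DHT and replicates 1 and 2 of sh_scramble +DHT (adjusted p of 0.0503 to 0.143), and with DHT they were replicates 1 and 2 of sh_scramble +DHT and 1 and 3 of sh_TMEFF2 +DHT (0.0926 to 0.112).

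Of the transcription factors, EGR1, an immediate early factor, was at or under 1.62 CPM in all libraries and fell by 1.34 on the log2 scale with DHT in sh_TMEFF2 (adjusted p of 0.0285), which was lost without replicates 1 or 3 of sh_TMEFF2 −DHT or 2 or 3 of sh_TMEFF2 +DHT (adjusted p of 0.0858 to 0.123). MYCN, after whose product the family is named, was listed at 0 in all 12 libraries, which allows up to 3 counts or 0.154 CPM in the smallest library.

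Of the oxygen-sensing genes that bear on NDRG1 and NDRG3, none was called. HIF1A, the oxygen-regulated subunit of hypoxia-inducible factor, was at 177 to 217 CPM over the 12 libraries, with log2 differences of 0.04 and −0.03 with DHT in the 2 lines and 0.01 and −0.05 between the lines. EGLN1, the hydroxylase that marks HIF1A and NDRG3, differed by at most −0.19, and VHL, which recognizes the hydroxylated proteins, by at most −0.19 as well. ARNT, the partner subunit of HIF1A, is named here after its values were seen. It was at 87.5 to 90.0 CPM in sh_scramble −DHT and 63.4 to 72.1 CPM in sh_scramble +DHT, without overlap, a log2 difference of −0.40 with an edgeR adjusted p of 0.000751 that was under 1.5-fold.

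**Figure D3:**
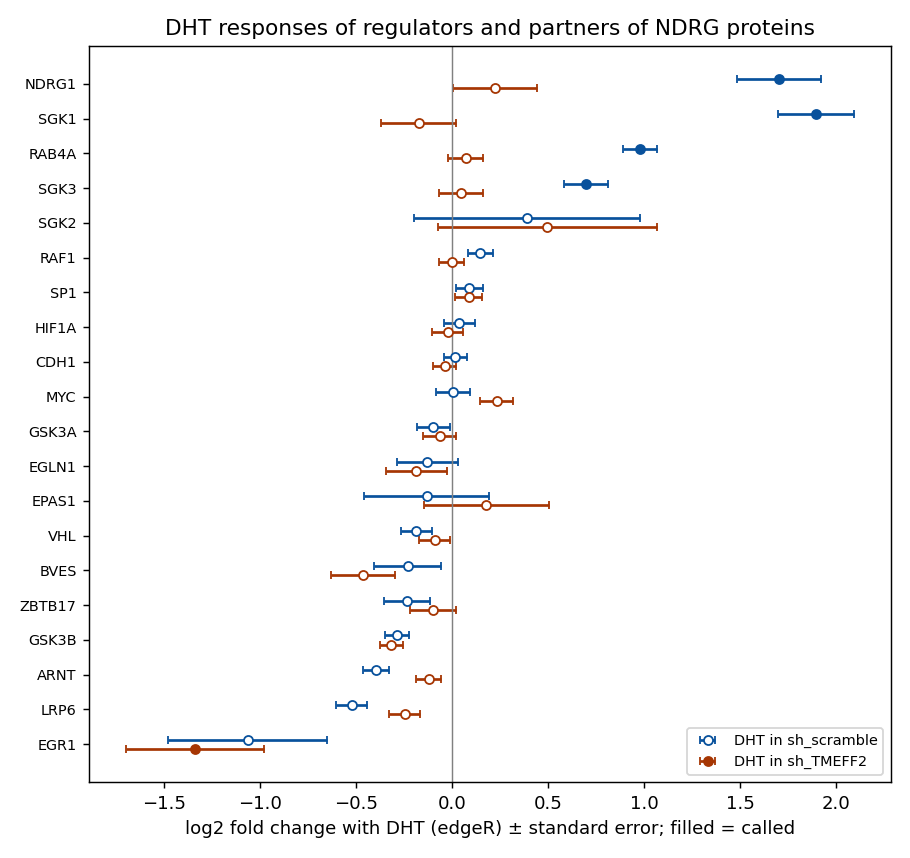
Log2 fold changes with DHT (horizontal axis) in sh_scramble (blue) and sh_TMEFF2 (brown) for NDRG1 and 19 regulators and partners of NDRG proteins (rows), from edgeR with standard errors as bars; filled points were called. SGK1, RAB4A and SGK3 are filled to the right in sh_scramble at 1.90, 0.98 and 0.69 and lie at −0.18, 0.07 and 0.04 in sh_TMEFF2.

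Because NDRG1 is itself a hypoxia-responsive gene, 25 other hypoxia-induced genes were followed, of which 24 passed the filter. Of these, 4 were called higher and 1 lower with DHT in sh_scramble, where 5.45% of all genes were called higher and 6.45% lower, with a median log2 difference of 0.29. In sh_TMEFF2, 1 was called higher and 0 lower with DHT, against 3.28% and 1.6% of all genes, with a median of 0.04. Between the lines 0 were called without DHT, against 0.298% of all genes higher and 0.272% lower. In that comparison 20 of 24 lay below 0 with a median of −0.25, where 7854 of all 15419 genes lay below 0. With DHT 5 were called lower and 0 higher, against 3.74% and 3.03% of all genes, with a median of −0.40. The medians over all genes lay between −0.02 and 0.01 in these comparisons. Between the DHT responses 1 gene was called higher in sh_TMEFF2 and 0 lower, against 1.65% and 3.29% of all genes.

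The called hypoxia genes were HK2, the glycolytic enzyme hexokinase 2, and ANKRD37, an ankyrin repeat protein, at 0.96 and 0.86 with DHT in sh_scramble (edgeR adjusted p of 0.00481 and 0.0139), and ERO1A and PFKFB4 at 0.81 and 0.60, named here because the count is small. PFKFB4 passed narrowly in that comparison, at 1.52-fold and an edgeR adjusted p of 0.0475, and its groups overlapped. INSIG2, a regulator of sterol synthesis, fell by 1.29 on the log2 scale there (adjusted p of 1.06e-05), opposite to NDRG1, and its DHT responses differed by 0.88 (adjusted p of 0.0132), a call that was lost in 1 of 21 alternatives, with the first column of each library only (0.129). In sh_TMEFF2, HK2 rose with DHT by 0.84 (adjusted p of 0.0227), while NDRG1 did not pass. With DHT, the genes lower in sh_TMEFF2 were BHLHE40, a transcriptional repressor, by −1.34 (adjusted p of 0.0131), ANKRD37 by −1.21 (adjusted p of 0.00346), HK2 by −0.72 and, named because the count is small, VEGFA by −0.90 and P4HA1 by −0.63. The ERO1A, PFKFB4, VEGFA and P4HA1 calls and the HK2 line difference were not followed with single libraries left out. Of the other calls, some were ended by single libraries. The ANKRD37 response in sh_scramble was lost without replicates 1 or 2 of sh_scramble −DHT or 3 of sh_scramble +DHT (adjusted p of 0.0525 to 0.0627), the HK2 response in sh_TMEFF2 without replicates 1 or 2 of sh_TMEFF2 −DHT or 3 of sh_TMEFF2 +DHT (0.0776 to 0.0962), and the BHLHE40 difference without replicate 1 of sh_TMEFF2 +DHT (0.0538).

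The hypoxia genes also separated libraries within sh_scramble. Their mean level, in log2 CPM, was 5.49, 5.68 and 6.09 in sh_scramble −DHT and 5.62, 5.83 and 6.11 in sh_scramble +DHT, against 5.49 to 5.62 in the 6 sh_TMEFF2 libraries. Replicate 3 was thus the highest in both sh_scramble groups, and there it held the highest value of its group for 19 and 21 of the 24 genes. The sh_scramble −DHT replicate 3 is the library that was high in NDRG1, at 149.8 CPM. In sh_scramble +DHT the same contrast between libraries did not go with NDRG1, which was at 336, 300.0 and 339.9 CPM. The part of these 2 libraries in the NDRG1 results was measured by leaving both out. The NDRG1 values were then 2.09 for DHT in sh_scramble, −2.13 between the lines with DHT and −1.85 for the difference of responses, all called, and −0.27 between the lines without DHT. Without them the median log2 difference of the hypoxia list was 0.26 for DHT in sh_scramble. Between the lines it was −0.083 without DHT and −0.18 with DHT, so the lower hypoxia genes of sh_TMEFF2 rest in part on these libraries. With DHT, 3 hypoxia genes were then called lower in sh_TMEFF2 (ANKRD37, HK2 and VEGFA) and 2 higher (EGLN3 and INSIG2). The BHLHE40 and P4HA1 calls were lost. For DHT in sh_scramble, 7 were then called higher and 2 lower.

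**Figure D4:**
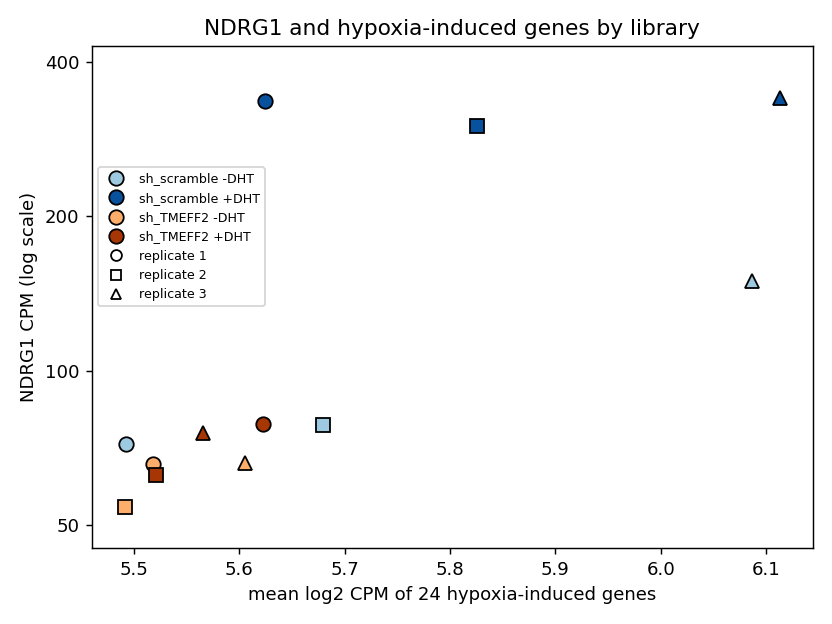
NDRG1 level in CPM (vertical log axis) against the mean log2 CPM of 24 hypoxia-induced genes (horizontal axis) in the 12 libraries, with colors for groups and shapes for replicates. The replicate 3 libraries of sh_scramble lie farthest right at 6.09 and 6.11, and the 3 sh_scramble +DHT libraries lie highest over the whole range from 5.62 to 6.11.

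To place each member among all genes, the 3 genes with the most similar log2 CPM over the 12 libraries were listed. The 12 points share group means and library depth, so the coefficients are descriptions without a test. For NDRG1 they were SNX25, a sorting nexin (Pearson r of 0.983), VLDLR, a lipoprotein receptor (0.975), and ANKRD37 (0.973). Within groups, after removal of the group means, the coefficients were 0.77, 0.70 and 0.95. For SGK1, SGK3 and RAB4A, r with NDRG1 was 0.76, 0.73 and 0.90 over the 12 libraries but −0.70, −0.50 and −0.31 within groups. ANKRD37 was at 4.25, 4.37 and 8.27 CPM in sh_scramble −DHT and 9.59, 9.27 and 11.8 CPM in sh_scramble +DHT, so that it shared with NDRG1 both the high +DHT group and the high replicate 3 without DHT. In sh_TMEFF2 it was at 3.28 to 3.65 CPM without DHT and 3.83 to 4.76 CPM with DHT.

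For NDRG2 the most similar genes were PCED1A (0.948), PGGHG (0.925) and AFDN (0.921), each of which had its lowest mean in sh_TMEFF2 +DHT. For NDRG3 they were CTBP2, a transcriptional corepressor (0.934), PSME2, a proteasome activator subunit (0.928), and DNAJB5 (0.925), which likewise had their lowest means in that group. For NDRG4 they were LRRC1 (0.838), CHERP (0.802) and TIMM21 (0.792), lower coefficients for a gene of few counts. For pairs of members, r lay between −0.41 and 0.61 over the 12 libraries. Within groups it lay between −0.65, for NDRG1 and NDRG3, and 0.78, for NDRG1 and NDRG4, again as a description without a test.

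On GRCh38 with the GENCODE v44 annotation, the 4 genes lie on 4 chromosomes. NDRG1 is on chromosome 8 from 133237175 to 133302022 on the minus strand, NDRG2 on chromosome 14 from 21016763 to 21070872 on the minus strand, NDRG3 on chromosome 20 from 36651766 to 36746090 on the minus strand and NDRG4 on chromosome 16 from 58462846 to 58513628 on the plus strand. The canonical transcripts of NDRG1, NDRG2 and NDRG3 have 16 exons and that of NDRG4 has 15, and the 4 are similar in length at 2971 to 3208 bases. The coding transcripts of the members, read as transcribed, share 0 stretches of 31 bases with each other, which is kallisto's default length for matching reads. In that orientation a read stretch of that length fits the coding transcripts of 1 member at most. Matches to the reverse complement were not searched, here or in the shares that follow. Of the 31-base stretches of NDRG1, 13.3% are shared with 1 other gene, ENSG00000289316, which overlaps it on the same strand. For NDRG3 4.23% are shared with other genes, and for NDRG2 and NDRG4 0.718% and 0.133%. NDRG2 overlaps 6 genes on the other strand, and whether the library kit kept strand is not given in the sources used here. A part of the NDRG1 and NDRG2 counts could therefore belong to the overlapping genes.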

How the data were processed

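RNA-seq reads of 12 LNCaP libraries were quantified by the authors, per the labels, after FastQC and Trimmomatic, with kallisto 0.42.3 on GRCh38. The authors deposited estimated counts (expected counts, which need not be whole) per gene, scaled with tximport by average transcript length and library size. The table has 24 columns, 2 for each library, which were taken as repeat runs and summed. The 2 columns of a library differed by 2.48 to 2.77 times Poisson noise and replicates by 4.07 to 5.05 times, and 0 columns were left without a library. Rounded sums went into edgeR 4.0.16 (R 4.3.3), with TMM normalization (factors 0.955 to 1.037), filterByExpr (minimum count 10, total 15), 1 coefficient per group and quasi-likelihood tests, p-values being adjusted over 15419 genes by Benjamini-Hochberg. Intervals are 95% from the fit. Log2 CPM levels used a prior count of 2. The fits were checked on simulated data.

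The genes named are the members, TMEFF2, chosen regulators, called list genes (of the hypoxia list, at most 2 each way) and the 3 genes most like each member with a mean of at least 5 CPM. ERO1A, PFKFB4, VEGFA, P4HA1, the HK2 difference between the lines with DHT, ARNT and the cell type markers were named outside this rule, after their values were seen. Some list genes were left out and are not reported here. Members and lists were chosen with earlier results of these data known. P-values measure the spread between repeats from 2 transductions. Some repeats of a group thus share a transduction, and the fit treated them as independent libraries. The p-values therefore do not measure the spread between independent transductions or between hairpins. Alternatives were DESeq2 1.42.0, limma 3.58.1 (voom), library size only, no filter, a mean above 5 CPM, the 6 libraries of a comparison, the replicate number as a block, each column alone, each library left out, and, chosen after seeing the data, both sh_scramble libraries of replicate 3 left out. Target sequences of shTMEFF2-1 and shTMEFF2-2 were taken from the study's supplement and matched to GENCODE v44 transcripts.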

Additional observations from a re-analysis of the deposited data

Results flagged for a closer look

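The DHT response differed between the lines, by the test of the difference itself, for NDRG1 and for 7 other genes of the lists. The values are the response in sh_TMEFF2 minus that in sh_scramble, on the log2 scale, with edgeR's adjusted p over all genes. NDRG1 differed by −1.48 (adjusted p of 0.0159). Of the genes linked to NDRG proteins, SGK1 differed by −2.07 (0.00125), RAB4A by −0.91 (0.00139) and SGK3 by −0.65 (0.0358). Of the hypoxia-induced genes, INSIG2 differed by 0.88 (0.0132). Of the luminal prostate markers, KRT8 differed by −1.49 (8.37e-05), KRT18 by −1.07 (8.59e-05) and FOLH1 by 0.50 (0.000873). The SGK3 call was lost in 10 of 21 alternatives and the INSIG2 call in 1 of 21. With 3 libraries a group, single outlying libraries were not tested for.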

How the results depend on the processing

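All NDRG calls, and all absences of a call, were the same under the 20 to 22 alternatives run for each value: of 431 values, 414 kept direction and call status and 17 turned in sign, none of them a called value. For NDRG3 between the lines with DHT, edgeR's adjusted p fell to 0.0303 at lowest with single libraries left out. It was 0.0124 without both sh_scramble libraries of replicate 3. In these fits only the limit of 1.5-fold kept NDRG3 uncalled. The turned values were small. NDRG2's difference of DHT responses became 0.046 with library size only, 0.0023 with a mean above 5 CPM, 0.22 with the first column and 0.015 without both sh_scramble libraries of replicate 3. NDRG2 became 0.013 for DHT in sh_TMEFF2 and 0.075 between the lines with DHT with the first column, and 0.032 between the lines without DHT with the second. NDRG4 for DHT in sh_scramble became 0.27 with the second column and 0.34 without both replicate 3 libraries, which also gave 0.10 between the lines without DHT. Leaving out single libraries gave ranges across 0 for NDRG2 (−0.096 to 0.00041 between the lines without DHT, −0.076 to 0.020 for the difference of responses), NDRG3 (−0.14 to 0.040 for DHT in sh_scramble) and NDRG4 (−0.37 to 0.33 for DHT in sh_scramble, −0.59 to 0.10 between the lines without DHT). The causes were not tested.

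Counts of called genes moved more. Between the lines without DHT, 88 genes became 180 with DESeq2, 157 without a filter, 46 in the comparison's libraries alone, 46 with the first column, 50 with the second and 32 to 117 with single libraries left out. For the difference of responses, 761 became 1199 with DESeq2, 494 with the second column, 470 without both replicate 3 libraries and 465 to 765 with single libraries left out. For DHT in sh_TMEFF2, 753 became 466 to 902. Whether replicate numbers pair the libraries was not settled. Over all genes, deviations from group means correlated between −0.0017 and 0.17 for libraries of one replicate number, and exceeded 0.1 in 3 of 12 pairs. Such values do not show that a pairing is absent. Replicate 3 was the highest of its group for 19 and 21 of the 24 hypoxia genes in sh_scramble without and with DHT, and for 13 and 13 in sh_TMEFF2. The replicate block gave 144 genes between the lines without DHT and changed no NDRG call. NDRG4 rests on under 100 counts in each library.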
